A study of Caenorhabditis elegans with 36 samples.

Results

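The 33 genes of Caenorhabditis elegans whose names begin with pas-, pbs-, rpn- or rpt-, the subunits of the 26S proteasome, were followed through mRNA-seq and small RNA-seq libraries. They were chosen by gene name in the WBcel235 annotation and matched by sequence name to the count tables, where all 33 were found among 45904 gene names. They fall into 7 pas genes, 7 pbs genes, 6 rpt genes and 13 rpn genes. The study compared mut-16(pk710) mutants (strain NL1810) with wild-type N2 animals, both raised from synchronized L1 larvae at 25°C or at 20°C. Each genotype was thus sampled at both temperatures, which gives 4 groups, with 3 libraries per group and assay, and each sample was a pool of whole Day 1 adults. The mutant groups rest on 1 allele, carried by the animals of both mut-16 groups. The heated animals were collected at about 48 h and the others at about 68 h, so temperature cannot be told apart from time in culture.

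The 26S proteasome degrades proteins that carry ubiquitin chains. Its 20S core is a barrel of alpha rings (pas genes), which gate the entrance, around beta rings (pbs genes), which hold the proteolytic sites. The 19S cap recognises ubiquitinated proteins and unfolds them: its rpt genes encode the ATPase ring, and its rpn genes encode scaffolds, ubiquitin receptors, a deubiquitinase and the lid. Because the subunits are used together, their genes are commonly co-regulated, and in C. elegans the transcription factor SKN-1A raises proteasome gene expression when proteasome activity is impaired. MUT-16 is a scaffold of the Mutator foci of germ cells, where RNA-dependent RNA polymerases amplify small interfering RNAs against a set of target mRNAs. Other germline genes are targets of small RNAs bound by the Argonaute CSR-1, which do not need MUT-16.

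The mRNA libraries held 15432009 to 34195602 counted reads each, and the small RNA libraries 4760502 to 19060841. The lowest was the third small RNA library of wild-type at 25°C. Levels are given as RPM, the reads of a gene scaled to the same total of counted reads in every library. The mRNA of mut-16 itself stood at 40.6 to 64.3 RPM in the 6 mut-16 libraries, against 105 to 127 RPM in the 6 wild-type libraries. As these are whole animals, fewer cells of a type cannot be told apart from less RNA per cell. Outside mut-16 at 25°C, pairs of mRNA libraries of the same group had a chi-square per degree of freedom of 3.15 to 46.1. A value of 1 would be sampling noise. The highest value was in mut-16 at 20°C, where library 3 differed from libraries 1 and 2 by 46.1 and 22.6. Within mut-16 at 25°C, mRNA libraries 2 and 3 were close to each other (1.63). There, library 1 differed from both by values inside the range of the other groups (28.6 and 27.8). The intestine genes summed to 48990 RPM in library 1, and to 29540 and 30060 RPM in the other 2. Without library 1, the counts of proteasome genes lower were 33 for heat in mut-16, 33 for mut-16 at 25°C and 23 for the difference of heat responses, as with all libraries. Without library 2 they were 33, 32 and 17, and without library 3 they were 33, 31 and 20. Marker lists of several tissues differed between the groups. The summed mRNA of 10 oocyte genes was 7214 to 7442 RPM in mut-16 at 25°C and 9835 to 11650 RPM in the other 9 libraries, and that of 10 germline genes was 2647 to 2780 RPM against 3143 to 3783 RPM. The 7 muscle genes summed to 2168 to 2780 RPM in mut-16 at 25°C and 1044 to 1659 RPM elsewhere. The major sperm protein genes summed to 471 to 544 RPM in mut-16 at 25°C, 309 to 415 RPM in mut-16 at 20°C, 57.1 to 92.8 RPM in wild-type at 25°C and 6.43 to 8.20 RPM in wild-type at 20°C. The part of these differences in the proteasome results was not tested.

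The question of the first comparison was how proteasome gene expression responded to heat in animals that lack MUT-16. The mRNA of all 33 genes fell in mut-16 at 25°C relative to mut-16 at 20°C, although rpt-6 and rpn-8 were above 0 when libraries were scaled by their totals. Of the 14623 genes tested, 32.3% fell and 40.2% rose. The median log2 fold change of the 33 genes was -0.57, within -0.97 to -0.27, beside a median of 0.15 over all genes tested. A gene is said to rise or fall where its adjusted p was under 0.05 in the quasi-likelihood test of edgeR (Benjamini-Hochberg over all genes tested), with trimmed mean of M values (TMM) scaling. The summed mRNA of the 33 genes was 7288, 7691 and 7703 RPM in mut-16 at 25°C, 8913, 9096 and 9459 RPM in mut-16 at 20°C, 8684, 8887 and 8765 RPM in wild-type at 25°C and 9367, 10230 and 9611 RPM in wild-type at 20°C. The 3 libraries of mut-16 at 25°C were thus the lowest of the 12. In RPM, 28 of the 33 genes were lower in each library of mut-16 at 25°C than in any of mut-16 at 20°C, as were 13.9% of the genes tested, and none was higher, as were 54.4% of the genes tested.

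**Figure D1:**
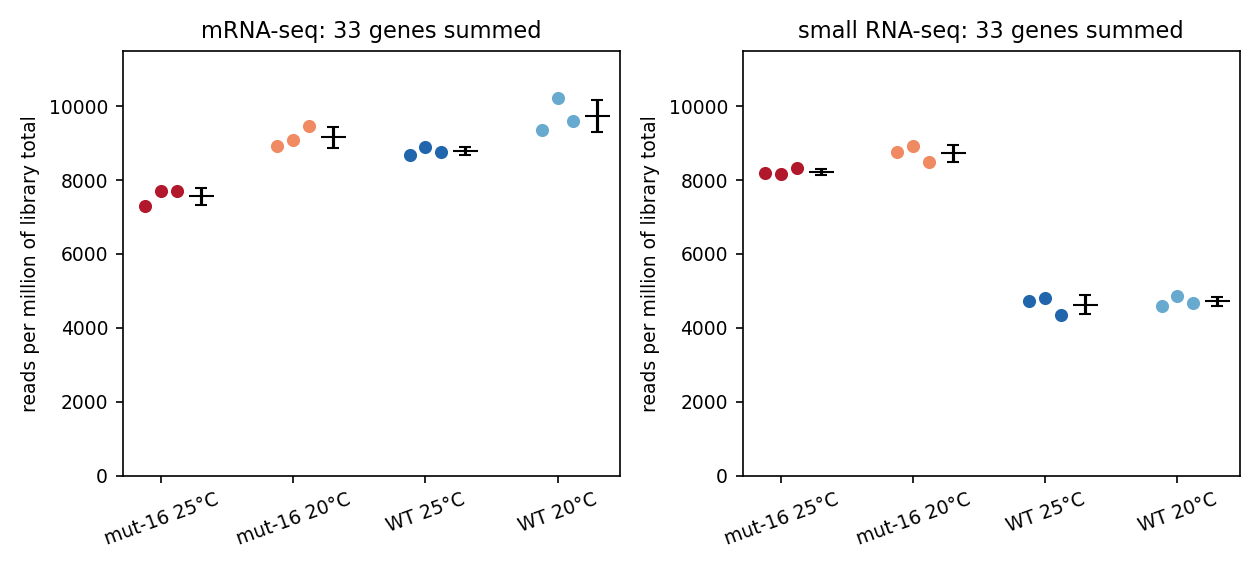
Summed level of the 33 proteasome genes, in RPM of the library total, in mRNA-seq (left) and small RNA-seq (right); each coloured point is a library and the bars show the mean ± SD (n = 3). The mRNA sums of mut-16 at 25°C, 7288 to 7703, lie below the other 9 libraries, and the small RNA sums of the 6 mut-16 libraries, 8173 to 8934, lie above the 6 wild-type libraries, 4336 to 4855.

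The size of these falls depended on how the libraries were scaled. TMM factors were 1.11 to 1.15 in mut-16 at 25°C and 0.90 to 0.93 in mut-16 at 20°C, against 0.96 to 1.01 in wild-type. With library totals as the scaling, the median over all genes tested moved to 0.46, the median of the 33 genes was -0.25, and 25 of them fell. With upper-quartile scaling, the median of the 33 genes was -0.33 and 28 fell. Of the 14623 genes tested, 1825 fell with library totals and 2558 with upper-quartile scaling. The same 25 genes passed under TMM, library totals and upper quartile. The median of the 33 genes minus that of all genes tested was -0.71, a difference that a change of scaling leaves as it is. It did depend on the filter for low counts. With at least 10 counts in every library the median was -0.37 for the 33 genes and 0.07 for all genes tested. With no filter these medians were -0.59 and 0.34.

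The largest fall was that of rpn-1, followed by pbs-1 and rpn-2 at nearly the same value. rpn-1 (T22D1.9, WBGene00004458, chrIV:6906420-6909913, minus strand, WBcel235), whose product docks ubiquitin receptors and shuttle factors, had 376, 334 and 335 RPM in mut-16 at 25°C, 565, 558 and 529.6 RPM in mut-16 at 20°C, 462, 459 and 474 RPM in wild-type at 25°C and 456, 502 and 556 RPM in wild-type at 20°C. The libraries of mut-16 at 25°C lay below those of each other group without overlap. The log2 fold change of rpn-1 between the mut-16 groups was -0.97 ± 0.17 (SE), with an adjusted p of 4.9e-07. Here and below, the SE of a log2 fold change was derived from that change and the p of the edgeR test. It is not a separate measure of the spread between libraries. rpn-2 (C23G10.4, WBGene00004459, chrIII:6199184-6202594, plus strand), the other large scaffold, had 330.5, 360.3 and 357 RPM in mut-16 at 25°C, 471, 514 and 451 RPM in mut-16 at 20°C, 468, 472 and 486 RPM in wild-type at 25°C and 433, 451 and 516 RPM in wild-type at 20°C. It also separated mut-16 at 25°C from every other group, with a log2 fold change of -0.77 ± 0.14 between the mut-16 groups.

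Among the catalytic beta subunits, pbs-1 (K08D12.1, WBGene00003947, chrIV:1708814-1709745, minus strand), the beta 1 subunit, had 208, 192 and 196 RPM in mut-16 at 25°C, 260.0, 252 and 305 RPM in mut-16 at 20°C, 206, 219.6 and 228 RPM in wild-type at 25°C and 225, 246 and 254 RPM in wild-type at 20°C. Its log2 fold change between the mut-16 groups was -0.77 ± 0.15. The libraries of mut-16 at 25°C lay below those of mut-16 at 20°C, and the groups at 25°C overlapped. pbs-2, the beta 2 subunit, had 179, 165 and 169.5 RPM in mut-16 at 25°C and 208, 177 and 227 RPM in mut-16 at 20°C, and these groups overlapped (log2 fold change -0.56 ± 0.13). pbs-5, the beta 5 subunit with the chymotrypsin-like site, had 207, 210.0 and 208 RPM in mut-16 at 25°C and 232, 246 and 267 RPM in mut-16 at 20°C, with no overlap (-0.57 ± 0.12). The other beta genes fell by between 0.48 and 0.64 on the log2 scale.

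The rest of the 19S cap moved less evenly. rpt-3, an ATPase of the ring, had 210.3, 236 and 232 RPM in mut-16 at 25°C and 285, 287 and 303 RPM in mut-16 at 20°C, with no overlap (-0.68 ± 0.13). rpn-11, the deubiquitinase that removes ubiquitin chains from substrates, had 204, 215 and 215 RPM in mut-16 at 25°C and 246, 231 and 263 RPM in mut-16 at 20°C (-0.54 ± 0.12). rpn-10, a ubiquitin receptor needed in C. elegans for the sexual fate of the germline, had 166, 181 and 175 RPM in mut-16 at 25°C and 192, 182 and 188 RPM in mut-16 at 20°C. Those groups lay side by side without overlap, the log2 fold change was -0.42 ± 0.12, and under library totals it was -0.10 with an adjusted p of 0.33.

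The genes with the least change were rpn-8, a subunit of the lid, and rpt-6, an ATPase. rpt-6 (Y49E10.1, WBGene00004506, chrIII:12370456-12372607, plus strand) had 194, 202 and 200.1 RPM in mut-16 at 25°C and 193, 197 and 193 RPM in mut-16 at 20°C, which overlapped. Its fitted log2 fold change was -0.28 ± 0.09 under TMM and 0.03 under library totals, and that of rpn-8 was -0.27 ± 0.10 under TMM and 0.04 under library totals. The direction of these 2 genes thus rested on the scaling. Between the modules, the falls were alike in size: the median log2 fold change was -0.63 for the alpha ring, -0.57 for the beta ring, -0.57 for the ATPases and -0.54 for the non-ATPases.

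**Figure D2:**
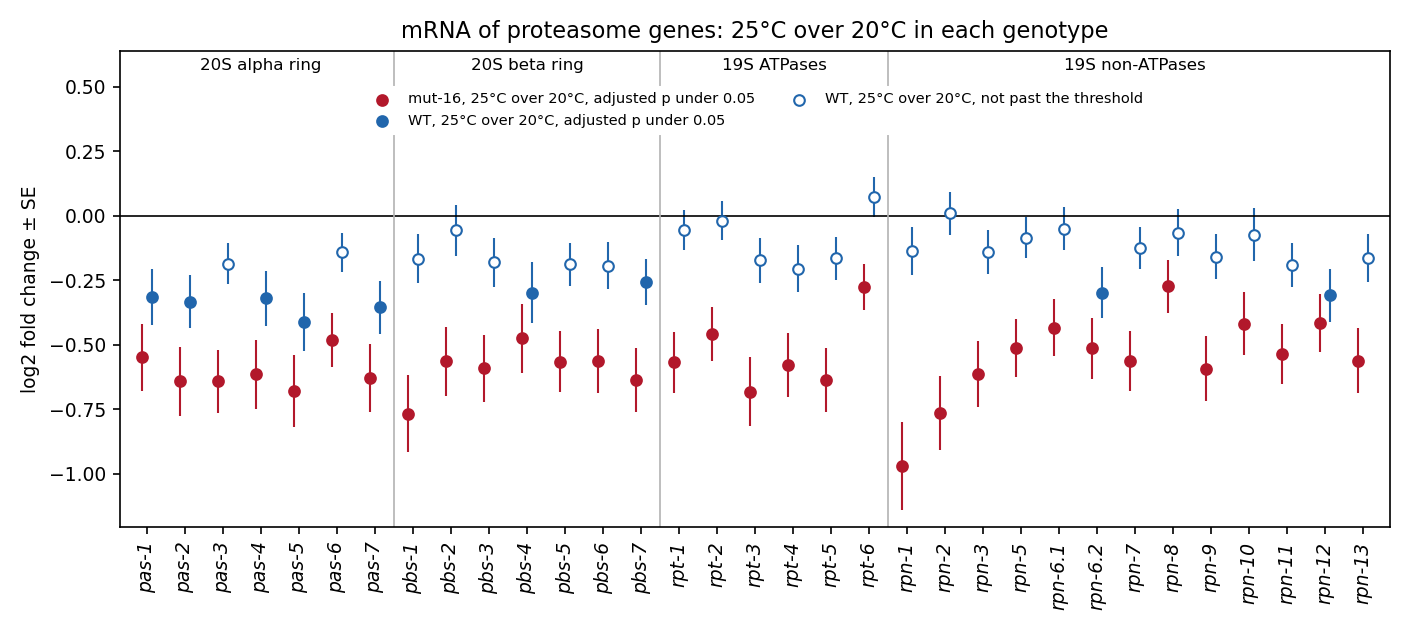
Log2 fold change of mRNA, 25°C over 20°C, of each proteasome gene in mut-16 (red) and in wild-type (blue). Bars are ± SE, derived from the fold change and the p of the edgeR test. Open circles are genes that did not pass an adjusted p of 0.05. All 33 red points lie below 0, from -0.97 for rpn-1 to -0.27 for rpn-8 (rpn-8 and rpt-6 lie above 0 under library totals), and 9 of the blue points are filled, 5 of them in the alpha ring.

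The promoter windows of 4 of these genes are shown: rpn-1, pbs-1 and rpn-2 because they had the 3 largest falls, and rpt-6 because it had nearly the smallest. Each window holds 250 bases before the annotated gene start and 50 bases after it, cut from the RefSeq WBcel235 genome and written in the direction of the gene. Capitals mark matches to the SKN-1 consensus, searched on both strands as AATATCAT, AATGTCAT, ATTATCAT, ATTGTCAT, TATATCAT, TATGTCAT, TTTATCAT and TTTGTCAT, or to the heat shock element core, TTCNNGAA or GAANNTTC. The window of rpn-1 holds neither motif. In pbs-1 the capitals begin 145 bases before the start and are the reverse complement of a SKN-1 form, in rpn-2 they begin 232 bases before it, and in rpt-6 a SKN-1 form begins 196 bases and a heat shock element core 107 bases before it.
rpn-1, chrIV:6909864-6910163, minus strand: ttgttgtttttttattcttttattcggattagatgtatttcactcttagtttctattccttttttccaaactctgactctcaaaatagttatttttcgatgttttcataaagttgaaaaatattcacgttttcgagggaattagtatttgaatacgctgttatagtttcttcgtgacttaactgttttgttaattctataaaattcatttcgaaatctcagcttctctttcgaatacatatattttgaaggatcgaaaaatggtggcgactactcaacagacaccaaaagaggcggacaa
rpn-2, chrIII:6198934-6199233, plus strand: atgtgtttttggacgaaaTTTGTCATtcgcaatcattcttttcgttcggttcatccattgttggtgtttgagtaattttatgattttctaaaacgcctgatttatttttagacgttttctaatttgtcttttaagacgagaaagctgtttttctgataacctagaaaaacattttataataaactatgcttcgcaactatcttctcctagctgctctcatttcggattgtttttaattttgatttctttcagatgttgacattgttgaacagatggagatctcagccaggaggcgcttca
pbs-1, chrIV:1709696-1709995, minus strand: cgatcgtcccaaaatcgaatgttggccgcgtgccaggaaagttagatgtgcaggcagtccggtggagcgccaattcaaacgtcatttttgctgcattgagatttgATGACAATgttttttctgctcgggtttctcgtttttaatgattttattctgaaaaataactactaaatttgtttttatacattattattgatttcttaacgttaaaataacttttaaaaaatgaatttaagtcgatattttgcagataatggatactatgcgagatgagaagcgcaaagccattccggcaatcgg
rpt-6, chrIII:12370206-12370505, plus strand: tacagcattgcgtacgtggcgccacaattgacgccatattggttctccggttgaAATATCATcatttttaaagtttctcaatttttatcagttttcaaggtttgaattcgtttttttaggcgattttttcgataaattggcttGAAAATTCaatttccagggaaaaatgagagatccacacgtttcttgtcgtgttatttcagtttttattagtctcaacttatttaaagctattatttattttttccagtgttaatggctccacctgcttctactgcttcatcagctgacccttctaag
A SKN-1 form occurred in the windows of 11 of the 33 genes (33.3%), and in 16.5% of the windows of 19616 protein-coding genes. The heat shock element core occurred in 10 of the 33 (30.3%) and in 32.5% of all windows. These matches are a description of the letters, and many C. elegans mRNAs are trans-spliced, so that an annotated start need not be the start of transcription.

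In wild-type, heat lowered the mRNA of 9 of the 33 proteasome genes and raised none, where 9.78% of all genes tested fell and 22.6% rose. The median log2 fold change of the 33 was -0.17, beside 0.09 over all genes tested. The genes that fell were pas-1, pas-2, pas-4, pas-5 and pas-7 of the alpha ring, pbs-4 and pbs-7 of the beta ring, and rpn-6.2 and rpn-12, and none of the 6 ATPase genes passed. pas-5 had 285, 309.6 and 292 RPM in wild-type at 25°C and 409, 383 and 374 RPM in wild-type at 20°C, with no overlap (log2 fold change -0.41 ± 0.11). pas-7 had 245, 255 and 247 RPM at 25°C and 318, 339 and 288 RPM at 20°C (-0.36 ± 0.10). pas-2 had 254, 290.1 and 279 RPM at 25°C and 368, 327 and 330.2 RPM at 20°C (-0.33 ± 0.10). These 3 genes were named for the largest falls among genes without overlap. In RPM, all 7 alpha genes, and 19 of the 33 genes, were lower in each heated library than in any wild-type library at 20°C. So were 14.5% of the genes tested. None of the 33 was higher, as were 31.9% of the genes tested. rpn-2 and rpt-6, at 0.01 ± 0.08 and 0.07 ± 0.08, were the genes with a positive value and did not pass. The count of 9 was 22 without the third library of mut-16 at 20°C, 18 with wild-type libraries alone in the fit and 23 by DESeq2. The number of all genes that fell rose as well, from 1430 of 14623 to 2120 of 14840, 1873 of 12606 and 2317 of 14623. The alpha ring made up 19.9% ± 0.4 of the proteasome reads in wild-type at 25°C and 21.9% ± 1.0 at 20°C (SD, n = 3), a share that does not depend on scaling.

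At 25°C, mut-16 was compared with wild-type. The mRNA of all 33 genes was lower in mut-16, where 32.6% of the genes tested were lower and 41.1% higher. The median log2 fold change of the 33 was -0.38, within -0.65 to -0.23, beside 0.16 over all genes tested. This comparison shares its mut-16 libraries with the heat comparison in mut-16, so the 2 results are not independent. The largest differences were those of rpn-2 (-0.65 ± 0.13), rpn-1 (-0.62 ± 0.13) and rpt-1 (-0.56 ± 0.12). rpt-1, an ATPase, had 245, 274 and 274 RPM in mut-16 at 25°C and 336, 339 and 335 RPM in wild-type at 25°C, with no overlap. The smallest was that of pbs-2 at -0.23 ± 0.11, with an adjusted p of 0.038 under TMM and a value of 0.02 under upper-quartile scaling, where the direction turned. In RPM, 27 of the 33 genes were lower in each mut-16 library than in any wild-type library, as were 25.4% of the genes tested, and none was higher, as were 53.2% of the genes tested. With library totals, 14 of the 33 were lower, with upper-quartile scaling 11, and with a minimum of 10 counts in every library 19. Of the 14623 genes tested, 2680 were lower with library totals and 2208 with upper-quartile scaling. With the minimum of 10 counts, 2909 of 11009 genes tested were lower. The 11 genes lower under TMM, library totals and upper quartile were pas-2, pas-3, pbs-3, pbs-7, rpn-1, rpn-2, rpn-3, rpn-5, rpn-7, rpt-1 and rpt-5.

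At 20°C, 3 of the 33 genes passed between mut-16 and wild-type. Of these, pbs-1 (0.26 ± 0.10) and pbs-2 (0.27 ± 0.11) were higher in mut-16 and pas-2 was lower (-0.24 ± 0.10), where 25.9% of the genes tested were higher and 11.2% lower. pbs-1 had 260.0, 252 and 305 RPM in mut-16 at 20°C and 225, 246 and 254 RPM in wild-type at 20°C, which overlapped. pas-2 had 241, 274 and 303 RPM in mut-16 at 20°C and 368, 327 and 330.2 RPM in wild-type at 20°C, with no overlap. The median of the 33 was -0.0029, beside 0.11 over all genes tested. None of the 3 calls held under TMM, library totals and upper quartile alike. Without the third library of mut-16 at 20°C, 9 genes were lower, where 2290 of 14840 genes tested were lower.

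The heat response of mut-16 was then set against that of wild-type by the interaction of genotype and temperature. All 4 groups enter this test, so it shares its libraries with the comparisons above. It was negative for all 33 genes under TMM and passed for 23, where 21.4% of the genes tested passed below 0 and 9.7% above it. The median of the 33 was -0.38, beside -0.10 for all genes tested. The scaling decided most of these calls. Under library totals 2 passed, where 8 of the 33 values were positive and the median of all genes was 0.19. Upper-quartile scaling gave 3. Of the 14623 genes tested, 889 passed below 0 under library totals and 1221 under upper quartile, shares close to those of the 33 genes. A minimum of 10 counts in every library gave 4, where 1055 of 11009 genes tested passed below 0. Without the third library of mut-16 at 20°C, 12 passed, where 2430 of 14840 genes tested passed below 0. rpn-1 (-0.84 ± 0.19) and rpn-2 (-0.78 ± 0.17) passed under all of the scalings, with adjusted p values of 0.00049 and 0.00043 under TMM and 0.0034 and 0.0067 under library totals. pbs-1 (-0.60 ± 0.16) passed under TMM and upper quartile, and its adjusted p was 0.067 under library totals. By module, 6 of 6 ATPase genes, 6 of 7 beta genes, 9 of 13 non-ATPase genes and 2 of 7 alpha genes passed under TMM. Under library totals, 2 of 13 non-ATPase genes passed, and 0 genes of each other module.

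**Figure D3:**
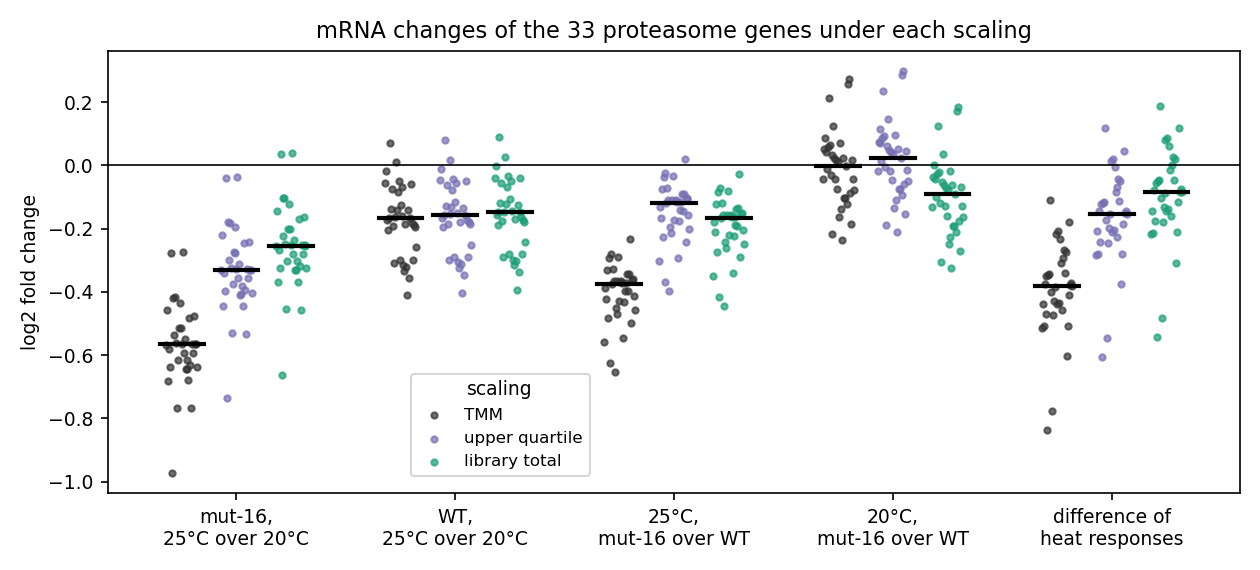
Log2 fold change of mRNA of the 33 proteasome genes (points) in each comparison under TMM, upper-quartile and library-total scaling, with black lines at the medians. For heat in mut-16, the median is -0.57 under TMM, -0.33 under upper quartile and -0.25 under library totals, and for the difference of heat responses it is -0.38, -0.15 and -0.08.

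Other gene groups moved in the same comparisons. In heated mut-16, the genes of the CCT chaperonin, another multi-subunit complex, all fell (8 of 8, median log2 fold change -0.67), as did 75 of 78 cytosolic ribosomal protein genes (median -0.52), 10 of 10 oocyte genes (median -0.75) and 9 of 10 germline genes (median -0.53). Under library totals 8 CCT genes, 42 ribosomal protein genes (median -0.21), 10 oocyte genes and 6 germline genes (median -0.22) fell. The 5 hypodermis genes all rose (median 0.81). No test of a difference between the proteasome genes and these lists was made. The summed proteasome mRNA was 1.03 ± 0.05 times that of the oocyte genes in mut-16 at 25°C, 0.84 ± 0.02 times in mut-16 at 20°C, 0.83 ± 0.01 times in wild-type at 25°C and 0.93 ± 0.10 times in wild-type at 20°C (SD, n = 3). Relative to the germline genes it was 2.80 ± 0.15 times in mut-16 at 25°C, 2.69 ± 0.20 times in mut-16 at 20°C, 2.34 ± 0.05 times in wild-type at 25°C and 2.89 ± 0.15 times in wild-type at 20°C.

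Genes that act before and beside the proteasome mostly fell in heated mut-16 as well. Of 17 proteasome-associated and shuttle factors, 17 fell, with a median log2 fold change of -0.49 under TMM and -0.18 under library totals, where 5 fell. The largest falls were those of ecps-1 (-1.04 ± 0.25), a homolog of the proteasome adaptor ECM29, and cdc-48.1 (-0.93 ± 0.16), the AAA ATPase that extracts ubiquitinated proteins. cdc-48.1 had 632, 610.0 and 619 RPM in mut-16 at 25°C and 998, 995 and 871 RPM in mut-16 at 20°C. Its near-identical copy cdc-48.2, with which it can share reads, had 529, 549 and 552 RPM in mut-16 at 25°C against 597, 624 and 571 RPM in mut-16 at 20°C (-0.45 ± 0.10). ecps-1 had 242, 148 and 153 RPM in mut-16 at 25°C, 313, 321 and 267 RPM in mut-16 at 20°C, 277, 248 and 271 RPM in wild-type at 25°C and 153, 179 and 165 RPM in wild-type at 20°C, so that it rose with heat in wild-type (0.66 ± 0.21) and fell with heat in mut-16.

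Of 25 ubiquitin, activation and conjugation genes tested out of 27 listed, 16 fell and 5 rose in heated mut-16 (median -0.44). Under library totals 8 fell and 7 rose, with a median of -0.13. ubq-1, the polyubiquitin gene, had 1079, 1221 and 1204 RPM in mut-16 at 25°C and 1454, 1604 and 1153 RPM in mut-16 at 20°C, which overlapped (-0.58 ± 0.14). uba-1, the ubiquitin-activating enzyme, fell by 0.57 and ubq-2, a ubiquitin fusion to a ribosomal protein, by 0.46 on the log2 scale. The largest falls among the conjugating enzymes were those of ubc-14 (-0.65) and the SUMO-conjugating ubc-9 (-0.64). ubc-17 and ubc-22 rose, and their levels were at most 1.45 RPM in any library.

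Among 28 cullin-RING ligase genes tested out of 29 listed, 12 rose and 11 fell in heated mut-16, where the median was -0.02 and where, of all genes tested, 40.2% rose and 32.3% fell. Under library totals 16 rose and 7 fell, with a median of 0.29. The largest falls were lin-23, an F-box protein (-0.79 ± 0.14), and cul-2, a cullin scaffold (-0.75 ± 0.15). The largest rises were skr-9 (2.62 ± 0.44) and skr-5 (2.18 ± 0.44), both Skp1-related adaptors. skr-9 had 5.61, 5.76 and 5.83 RPM in mut-16 at 25°C and 0.684, 0.981 and 0.622 RPM in mut-16 at 20°C, and it can share reads with its close relatives. Of 6 genes of the SKN-1A route, 4 fell: sel-11, a ubiquitin ligase of the endoplasmic reticulum (-0.63 ± 0.13), ddi-1, the protease that cleaves SKN-1A (-0.52 ± 0.12), skn-1 (-0.49 ± 0.12) and png-1, the peptide N-glycanase (-0.32 ± 0.13). Under library totals, png-1 was at -0.0022 and the other 3 stayed lower.

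Levels per length of mRNA were close to each other among the subunits other than rpn-6.2. Over 32 of the 33 genes, without rpn-6.2, RPM per kilobase of exon (RPKM) spanned 109.8 to 309 in mut-16 at 25°C, 138 to 398 in mut-16 at 20°C, 136 to 346 in wild-type at 25°C and 141 to 454 in wild-type at 20°C. pas-5 was the highest in each of the 4 groups. The lowest was rpn-1 in mut-16 at 25°C, rpt-6 in mut-16 at 20°C, rpn-13 in wild-type at 25°C and rpt-6 in wild-type at 20°C. The median of the 14 core genes was 226 RPKM in mut-16 at 25°C, 276 RPKM in mut-16 at 20°C, 259 RPKM in wild-type at 25°C and 302 RPKM in wild-type at 20°C, and that of 18 cap genes was 169 RPKM in mut-16 at 25°C, 201 RPKM in mut-16 at 20°C, 193 RPKM in wild-type at 25°C and 216 RPKM in wild-type at 20°C.

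Small RNAs that map to proteasome genes were higher in mut-16, opposite to the median of all genes tested. With a minimum of 10 counts in every library, that median was near 0, at 0.03 at 25°C and -0.01 at 20°C. At 25°C, 32 of the 33 genes had more small RNA in mut-16 than in wild-type, where 31.3% of the 16025 genes tested had more and 47.1% had less, and in RPM the libraries of these 32 genes did not overlap, as for 30.2% of the genes tested. At 20°C the count was again 32, where 33.6% had more and 46.8% less (33.4% and 50.3% without overlap in RPM), and the same 32 genes passed at both temperatures. The median log2 fold change of the 33 was 0.92 at 25°C and 0.96 at 20°C, beside -0.58 and -0.45 over all genes tested. The summed small RNA of the 33 genes was 8192, 8173 and 8322 RPM in mut-16 at 25°C, 8765, 8934 and 8482 RPM in mut-16 at 20°C, 4723, 4814 and 4336 RPM in wild-type at 25°C and 4599, 4855 and 4683 RPM in wild-type at 20°C. The mut-16 and wild-type libraries did not overlap. RPM is a share of each library, so that a loss of small RNAs of other genes raises the share of those that remain, and more molecules per animal cannot be told apart from this.

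**Figure D4:**
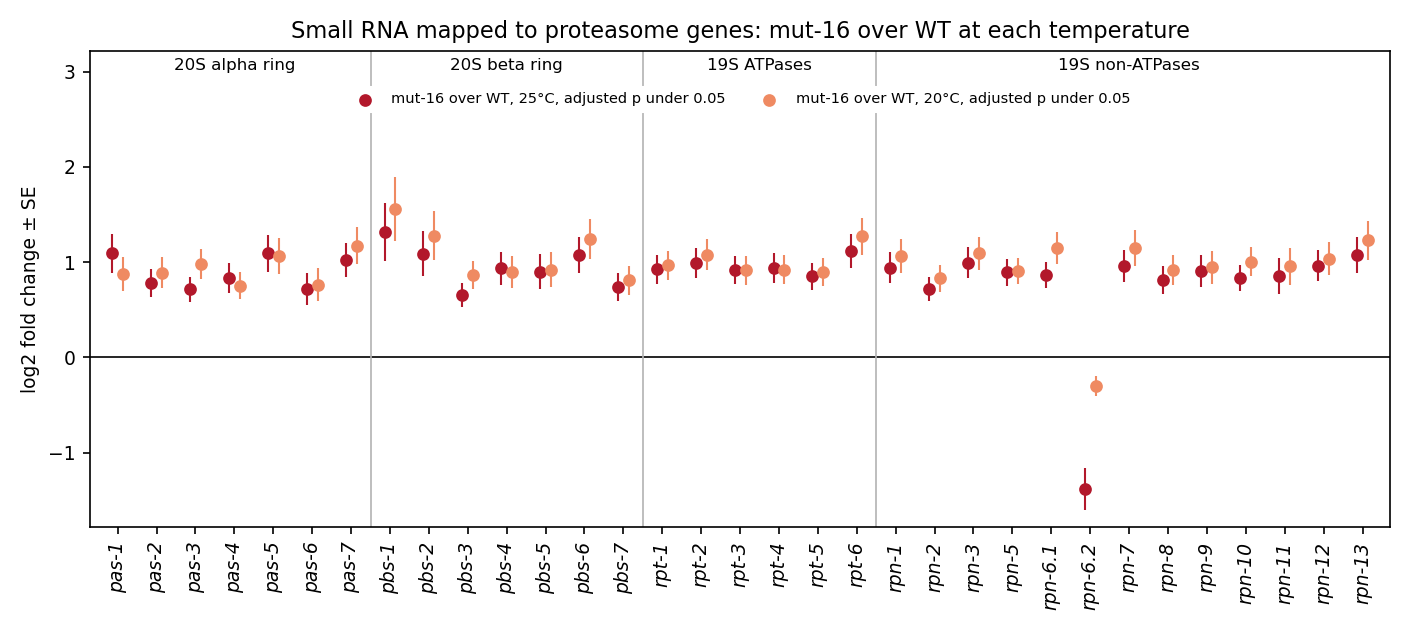
Log2 fold change of small RNA, mut-16 over wild-type, of each proteasome gene at 25°C (red) and at 20°C (orange). Bars are ± SE, derived from the fold change and the p of the edgeR test. All points passed an adjusted p of 0.05. The points of 32 genes lie between 0.66 and 1.56, and rpn-6.2 lies below 0 at -1.38 and -0.30.

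The rises were of similar size in every module, with medians at 25°C of 0.84 for the alpha ring, 0.93 for the beta ring, 0.93 for the ATPases and 0.89 for the non-ATPases. pbs-1 had the largest, with 236, 236 and 246 RPM in mut-16 at 25°C, 273, 283 and 259 RPM in mut-16 at 20°C, 116, 108 and 70.6 RPM in wild-type at 25°C and 87.8, 109.9 and 99.2 RPM in wild-type at 20°C. Its log2 fold change was 1.32 ± 0.31 at 25°C and 1.56 ± 0.34 at 20°C. The wild-type library with 70.6 RPM was the one with the fewest reads. rpt-6 had 138, 128 and 129 RPM in mut-16 at 25°C, 113, 113 and 110.2 RPM in mut-16 at 20°C, 65.8, 60.3 and 62.7 RPM in wild-type at 25°C and 46.5, 53.6 and 49.1 RPM in wild-type at 20°C (1.12 ± 0.18 at 25°C and 1.27 ± 0.20 at 20°C). pas-5 rose by a log2 fold change of 1.09 ± 0.19 at 25°C and pbs-2 by 1.28 ± 0.26 at 20°C. The least increased were pbs-3 at 25°C (0.66 ± 0.12) and pas-4 at 20°C (0.76). For the other genes followed by name, the log2 fold changes at 25°C and at 20°C were 0.86 and 0.96 for rpn-11, 0.92 and 0.91 for rpt-3, 0.83 and 1.00 for rpn-10, and 0.90 and 0.92 for pbs-5. These 32 rises passed under TMM, library totals, upper quartile, DESeq2 and both count filters, and their size fell to a median of 0.60 at 25°C and 0.51 at 20°C with a minimum of 10 counts in every library.

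Small RNAs of germline-expressed genes outside the proteasome were also higher in mut-16. At 25°C, 10 of 10 oocyte genes, 9 of 10 germline genes, 7 of 8 CCT genes and 49 of 78 ribosomal protein genes were higher, with medians of 0.89, 0.72, 0.77 and 0.47. By contrast, 7 of 7 intestine genes tested were lower, with a median of -3.58. Of the proteasome-associated and shuttle factors 15 of 17 were higher and 1 lower, and of the cullin-RING genes 11 of 23 tested were higher and 9 lower. The summed small RNA of the ubiquitin, activation and conjugation genes was lower in mut-16 at 25°C. It was 1905 to 2056 RPM in mut-16 at 25°C and 2080 to 2414 RPM in wild-type at 25°C. At 20°C it was 2077 to 2133 RPM in mut-16 and 1740 to 1808 RPM in wild-type. Relative to the oocyte genes, the summed small RNA of the 33 genes was 2.58 ± 0.07 times in mut-16 at 25°C, 2.29 ± 0.05 times in mut-16 at 20°C, 2.48 ± 0.04 times in wild-type at 25°C and 2.23 ± 0.03 times in wild-type at 20°C (SD, n = 3). Relative to the germline genes it was 1.93 ± 0.03 times in mut-16 at 25°C and 1.75 ± 0.02 times in mut-16 at 20°C. In wild-type it was 1.69 ± 0.09 times at 25°C and 1.41 ± 0.06 times at 20°C.

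The exception was rpn-6.2. The C. elegans genome holds a pair of genes for the lid subunit RPN6: rpn-6.1 (F57B9.10, WBGene00004462, chrIII:6959110-6962001, minus strand), whose product is known in worms for its part in proteasome assembly and stress resistance, and rpn-6.2 (F59B2.5, WBGene00010309, chrIII:8999817-9001999, minus strand). The small RNA of rpn-6.1 was 197, 198 and 199 RPM in mut-16 at 25°C, 209.9, 207 and 198 RPM in mut-16 at 20°C, 106, 114 and 123 RPM in wild-type at 25°C and 98.3, 102 and 97.7 RPM in wild-type at 20°C, so that it was higher in mut-16 like the other members (0.87 ± 0.14 at 25°C and 1.15 ± 0.17 at 20°C). The small RNA of rpn-6.2 was 20.9, 22.2 and 24.8 RPM in mut-16 at 25°C, 32.5, 35.4 and 32.96 RPM in mut-16 at 20°C, 57.3, 58.4 and 71.5 RPM in wild-type at 25°C and 46.6, 44.8 and 41.5 RPM in wild-type at 20°C. All 4 groups were separate, with wild-type at 25°C highest and mut-16 at 25°C lowest.

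At 25°C the small RNA of rpn-6.2 was lower in mut-16 with a log2 fold change of -1.38 ± 0.22 (adjusted p of 4.3e-09, edgeR). At 20°C the value was -0.30 ± 0.11 (adjusted p of 0.0074), and under upper-quartile scaling it was 0.02, where the direction turned. Heat raised it in wild-type (0.58 ± 0.13) and lowered it in mut-16 (-0.51 ± 0.13), and the difference of these responses was -1.08 ± 0.22 with an adjusted p of 7.4e-05. The ratio of rpn-6.2 to rpn-6.1 small RNA, which no scaling changes, had library values of 0.106, 0.112 and 0.124 for mut-16 at 25°C, and of 0.155, 0.171 and 0.167 for mut-16 at 20°C. For wild-type they were 0.543, 0.514 and 0.58 at 25°C, and 0.474, 0.441 and 0.424 at 20°C. The ratio was chosen after the values had been seen.

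In mRNA-seq, rpn-6.2 was the lowest of the 33 genes, with 20.2, 23.4 and 22.8 RPM in mut-16 at 25°C, 24.6, 25.99 and 25.9 RPM in mut-16 at 20°C, 22.5, 25.1 and 22.8 RPM in wild-type at 25°C and 29.3, 29.8 and 26.6 RPM in wild-type at 20°C. Its mRNA fell with heat in mut-16 (-0.51 ± 0.12 under TMM, but -0.20 with an adjusted p of 0.067 under library totals) and in wild-type (-0.30 ± 0.10), and the groups at 25°C overlapped (-0.29 ± 0.10 under TMM, -0.08 under library totals). rpn-6.1 mRNA had 232, 246 and 241 RPM in mut-16 at 25°C, 262, 256 and 264 RPM in mut-16 at 20°C, 273, 262 and 267 RPM in wild-type at 25°C and 254, 300.2 and 266 RPM in wild-type at 20°C, with a log2 fold change of -0.43 ± 0.11 between the mut-16 groups and -0.12 under library totals, where it did not pass. The ratio of rpn-6.2 to rpn-6.1 mRNA lay between 0.082 and 0.115 in all 12 libraries. The genes are paralogs, and reads that match both could be divided between them in the counting.

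**Figure D5:**
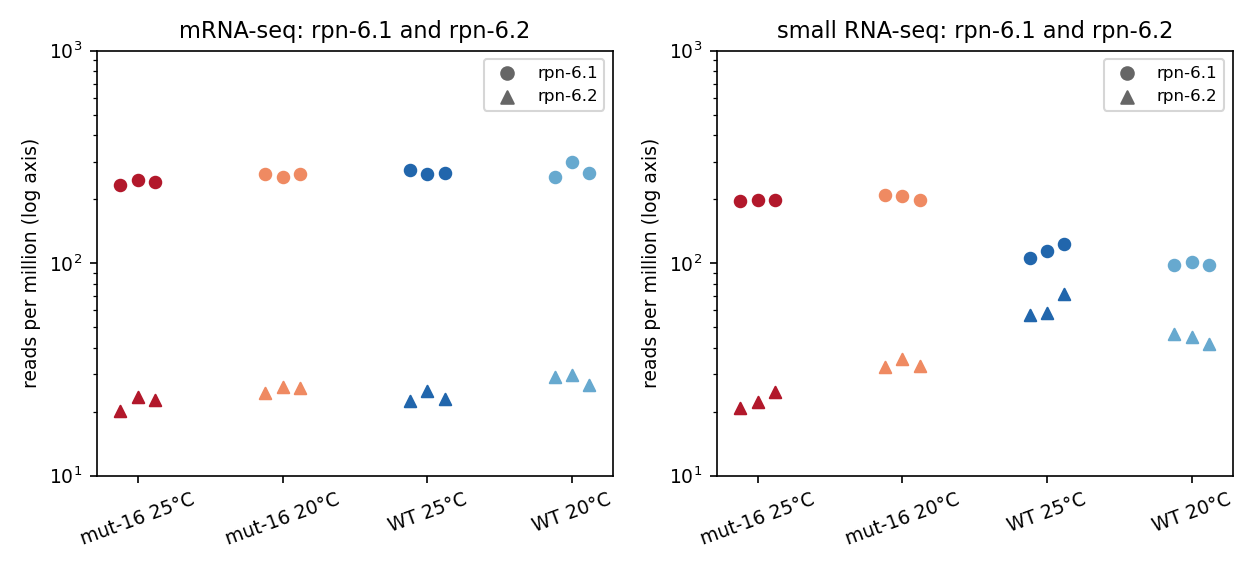
Level of rpn-6.1 (circles) and rpn-6.2 (triangles) in each library, in RPM on a log axis, in mRNA-seq (left) and small RNA-seq (right), with 3 libraries per group. The small RNA of rpn-6.2 is 20.9 to 24.8 in mut-16 at 25°C and 57.3 to 71.5 in wild-type at 25°C, while that of rpn-6.1 is 197 to 199 and 106 to 123.

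The small RNA of proteasome genes was also compared between temperatures. In mut-16, 5 of the 33 rose and 4 fell, where 8.29% of the genes tested rose and 17.3% fell (13.7% and 31.2% without overlap in RPM), and in wild-type 8 rose and none fell, where 20.2% rose and 17% fell. rpt-5, an ATPase, was among those that rose in each genotype: it had 209.7, 207 and 212 RPM in mut-16 at 25°C and 175, 169 and 166 RPM in mut-16 at 20°C (0.36 ± 0.09), and 115, 129 and 119.6 RPM in wild-type at 25°C and 98.9, 94.04 and 102 RPM in wild-type at 20°C (0.40 ± 0.09). pas-1 rose in mut-16 (0.40 ± 0.13), with 74.1, 75.6 and 82.7 RPM at 25°C and 60.8, 63.0 and 60.5 RPM at 20°C, and pas-3 fell (-0.27 ± 0.08), with 106, 108 and 108 RPM at 25°C and 126, 136 and 141 RPM at 20°C. pbs-3 fell by 0.20 in mut-16 and rpt-6 rose in each genotype (0.29 in mut-16 and 0.44 in wild-type). The increases of rpn-6.1 (0.29 ± 0.08) and rpn-10 (0.26 ± 0.08) passed in wild-type. These counts moved with the fit. In mut-16, 16 rose and 4 fell with only the compared groups in the fit, 13 rose and 1 fell with a minimum of 10 counts in every library, and 3 rose and 8 fell under library totals. Of all genes tested, 2320 rose and 2588 fell of 10956 in the first of these fits, 1908 and 1433 of 8195 in the second, and 1163 and 3409 of 16025 in the third. Without the third library of wild-type at 25°C, which had the fewest reads, 14 rose and 2 fell in mut-16, and 20 rose in wild-type. There, 2224 of 16483 genes tested rose and 2477 fell in mut-16, and 3569 rose in wild-type. The interaction passed for rpn-6.2 and for rpn-6.1 (-0.28 ± 0.10), where 12.6% of the genes tested passed below 0 and 5.7% above it.

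Apart from rpn-6.2, the amount of small RNA differed more widely between subunits than that of mRNA. Per kilobase of exon, rpn-11 had the most in each group, with 441 RPKM in mut-16 at 25°C, 468 RPKM in mut-16 at 20°C, 252 RPKM in wild-type at 25°C and 258 RPKM in wild-type at 20°C. pbs-5 had 438 RPKM in mut-16 at 25°C, 415 RPKM in mut-16 at 20°C, 244 RPKM in wild-type at 25°C and 234 RPKM in wild-type at 20°C. Over the 32 genes without rpn-6.2, the highest was 5.67 times the lowest in mut-16 at 25°C, 7.21 times in mut-16 at 20°C, 6.39 times in wild-type at 25°C and 7.31 times in wild-type at 20°C. For mRNA that ratio was 2.81 in mut-16 at 25°C, 2.89 in mut-16 at 20°C, 2.54 in wild-type at 25°C and 3.23 in wild-type at 20°C. Over all 33 genes, the ratio in mut-16 was 30.3 for small RNA and 21.7 for mRNA at 25°C. At 20°C it was 21.7 for small RNA and 24.3 for mRNA. In wild-type it was 6.39 for small RNA and 22.95 for mRNA at 25°C, and 9.09 and 24.8 at 20°C. The levels per length of mRNA and of small RNA showed little relation across the 33 genes, with Spearman's rho of -0.10 in mut-16 at 25°C, 0.08 in mut-16 at 20°C, -0.12 in wild-type at 25°C and 0.06 in wild-type at 20°C, as a description across genes that share libraries. For 9 of the 33 genes, rpn-11 among them, a protein-coding gene on the opposite strand overlaps the gene in the annotation, and whether the counting used strand is not given in the sources used here, so reads of the overlapping gene could be counted with them.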

How the data were processed

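mRNA-seq and small RNA-seq were each done on 12 pools of whole animals. The authors removed adapters with Cutadapt, mapped reads with HISAT2 to WS258 and with Salmon to its transcriptome, and deposited 1 table per library of expected counts (estimated counts of reads per gene), not normalized. Versions and strand settings are not given in the sources used here. Counts were rounded to whole numbers, and genes with low counts were removed with filterByExpr. edgeR 4.0.16 (R 4.3.3) was fitted to all 4 groups of an assay with TMM scaling, and contrasts were tested by quasi-likelihood with Benjamini-Hochberg adjustment over all genes at 0.05. A call is a pass at that threshold. The SE of a log2 fold change is its absolute value over the normal quantile of the unadjusted p of the test. The script was tested on simulated counts. Alternatives were DESeq2 1.42.0, other scalings, filters and thresholds, a replicate block, and leaving out each library.

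Counted reads were 15432009 to 34195602 per mRNA library and 4760502 to 19060841 per small RNA library. No pair of libraries was counted as 1 sample: the closest, mRNA libraries 2 and 3 of mut-16 at 25°C, differed by a chi-square per degree of freedom of 1.63. The study's methods call the 3 libraries of a group biological replicates. A mark (RE) in the labels of 10 mRNA libraries is missing in 2, and its meaning is not given. Those 2 are the third libraries of each genotype at the lower temperature, and every mRNA library at 25°C carries the mark. Leaving out the unmarked mut-16 library gave 22 proteasome genes lower for heat in wild-type and 12 for the difference of heat responses. With the mark as a covariate and all libraries kept, these counts were 10 and 23.

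Of 45904 gene names, 45648 were in the WBcel235 annotation. Promoter windows were cut from the RefSeq genome of that build. Genes named by rule were the 3 largest calls each way in a comparison without overlap and the 3 largest differences of heat response. Also named by rule were pbs-1, pbs-2, pbs-5, rpn-6.1, rpn-6.2, rpn-10, rpn-11 and rpt-3. From related lists they were the 2 largest changes each way and chosen regulators. Per-library values are given for part of these. For others, such as the small RNA of pbs-2, pbs-5, rpn-10, rpn-11 and rpt-3, only log2 fold changes are given. Others named were chosen after their values were seen. Members and lists were chosen with earlier results of these data known. The chromatin accessibility samples of the series were not used here.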

Additional observations from a re-analysis of the deposited data

Results flagged for a closer look

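Genes whose heat response differed between the genotypes, by the interaction of genotype and temperature in edgeR (adjusted p under 0.05), are given here as the log2 heat response in mut-16 minus that in wild-type. In mRNA-seq there were 23. Among the ATPase genes the value was -0.51 for rpt-1, -0.51 for rpt-3, -0.47 for rpt-5, -0.44 for rpt-2, -0.37 for rpt-4 and -0.35 for rpt-6. Among the beta ring genes the value was -0.60 for pbs-1, -0.51 for pbs-2, -0.41 for pbs-3, -0.38 for pbs-7, -0.38 for pbs-5 and -0.37 for pbs-6. Among the alpha ring genes the value was -0.46 for pas-3 and -0.34 for pas-6. Among the non-ATPase cap genes the value was -0.84 for rpn-1, -0.78 for rpn-2, -0.47 for rpn-3, -0.44 for rpn-7, -0.43 for rpn-9, -0.43 for rpn-5, -0.40 for rpn-13, -0.38 for rpn-6.1 and -0.34 for rpn-11. Under library totals only rpn-1 and rpn-2 passed, and under upper-quartile scaling rpn-1, rpn-2 and pbs-1. In small RNA-seq the value was -1.08 for rpn-6.2, where the heat responses were -0.51 in mut-16 and 0.58 in wild-type, and -0.28 for rpn-6.1, where they were 0.01 in mut-16 and 0.29 in wild-type. Under library totals the adjusted p of rpn-6.1 was 0.051.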

How the results depend on the processing

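Counts are of proteasome genes called, out of 33. The number of all genes called also moved with the alternatives. In mRNA-seq, heat in mut-16 lowered 33, and this count stayed within 1.5 times in every alternative but the minimum absolute log2 fold change of 1. That minimum left 0 genes in every mRNA result, and in small RNA-seq 8 higher in mut-16 at 25°C, 14 higher and 0 lower at 20°C, 0 for heat in either genotype and 1 for the difference of heat responses. An adjusted p under 0.01 left 3 lower for heat in wild-type, 0 higher and 0 lower for mut-16 at 20°C and 11 for the difference of heat responses, and in small RNA-seq 2 higher and 2 lower for heat in mut-16 and 1 for the difference. DESeq2 gave 23 lower for heat in wild-type and 0 higher and 3 lower for mut-16 at 20°C, and in small RNA-seq 2 lower for heat in mut-16 and 0 lower for mut-16 at 20°C. With no filter on low counts there were 22 lower for heat in wild-type, 0 higher and 6 lower for mut-16 at 20°C and 14 for the difference, and in small RNA-seq 2 higher and 2 lower for heat in mut-16, 0 lower for mut-16 at 20°C and 1 for the difference. With at least 10 counts in every library there were 19 lower for mut-16 at 25°C, 0 higher and 2 lower at 20°C and 4 for the difference, and in small RNA-seq 13 higher and 1 lower for heat in mut-16, 1 lower for heat in wild-type and 1 for the difference. With only the compared groups in the fit there were 18 lower for heat in wild-type, 0 higher and 2 lower for mut-16 at 20°C, and 16 higher in small RNA for heat in mut-16. Library totals gave 14 lower for mut-16 at 25°C, 0 higher and 3 lower at 20°C and 2 for the difference, and in small RNA-seq 3 higher and 8 lower for heat in mut-16, 4 lower for heat in wild-type and 1 for the difference. Upper-quartile scaling gave 11 lower for mut-16 at 25°C, 0 lower at 20°C and 3 for the difference, and in small RNA-seq 2 lower for heat in mut-16, 2 lower for heat in wild-type and 0 lower for mut-16 at 20°C. It turned the direction of pbs-2 mRNA in mut-16 at 25°C (0.0199) and of rpn-6.2 small RNA in mut-16 at 20°C (0.0152), and it moved the median of all small RNA genes in mut-16 at 25°C to -0.19. The cause of these shifts was not tested. TMM-scaled sums of mRNA were 6647 RPM for mut-16 at 25°C, 9998 RPM for mut-16 at 20°C and 8915 RPM for wild-type at 25°C, and those of small RNA were 8673 RPM for mut-16 at 25°C and 4443 RPM for wild-type at 20°C.

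Leaving out 1 library at a time gave 33 lower for heat in mut-16, 5 to 22 for heat in wild-type, 31 to 33 for mut-16 at 25°C, 0 to 3 higher and 0 to 9 lower for mut-16 at 20°C and 12 to 27 for the difference. In small RNA-seq it gave 2 to 14 higher and 1 to 4 lower for heat in mut-16, 5 to 20 higher and 0 to 2 lower for heat in wild-type, 32 higher and 1 lower for mut-16 at each temperature, and 0 to 1 higher and 1 to 3 lower for the difference. For the proteasome genes named by rule, 68 calls gave 1318 values under the alternatives. Of these values, 1192 kept direction and call, 124 kept direction only and 2 reversed. The calls of the other proteasome genes are not part of this count. With the RE mark as a covariate the mRNA counts were 33 for heat in mut-16, 10 for heat in wild-type and 33 for mut-16 at 25°C.

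The deviations of libraries with the same replicate number had correlations of -0.133 to 0.189. With 3 libraries per group, these values cannot decide whether such libraries share more than that number. In a fit with this number as a replicate block, the mRNA counts were 33 for heat in mut-16, 9 for heat in wild-type, 33 for mut-16 at 25°C, 2 higher and 1 lower at 20°C and 23 for the difference, and the small RNA counts were 5 higher and 3 lower, 8 higher and 0 lower, 32 higher and 1 lower at each temperature, and 0 higher and 2 lower for the difference.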
